A study of Mus musculus with 8 samples.

Results

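The cadherin superfamily genes of the mouse iris are described here, 46 of the 22873 genes in the count tables. They were taken by gene symbol: the numbered cadherins (Cdh), the cadherin-related genes Cdhr1 to Cdhr5, the protocadherins (Pcdh), the Fat genes, the Dachsous genes and the Celsr genes, leaving out antisense and pseudogene entries. Single nucleus RNA-seq was performed on 8 libraries, each from a separate pool of 5 to 6 irises of female albino wild-type mice aged 6 to 8 weeks, and the ciliary body was included to a varying extent. In 2 libraries the pupils had been dilated with 5% phenylephrine, an alpha-1 adrenergic agonist, plus 1% cyclopentolate, a muscarinic antagonist, as hourly drops in the dark. In 3 libraries the pupils had been constricted with 5% pilocarpine, a muscarinic agonist, as hourly drops in the light, and 3 libraries came from untreated mice. Drops were given for 6 hours and tissue was collected at 6.5 hours. Drug and lighting were changed together, so their effects cannot be told apart. The authors assigned each nucleus to 1 of 10 cell types: dilator muscle, sphincter 1 and sphincter 2 (both sphincter muscle), iris pigment epithelium (iris PE), ciliary body epithelium (CBE), non-epithelial ciliary body cells (CB), stroma 1, stroma 2, endothelial cells and leukocytes. The comparisons ask where each cadherin gene is transcribed in the iris and whether 6.5 hours of dilation or constriction changes it.

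Cadherins are transmembrane proteins that bind each other between neighbouring cells through calcium-dependent extracellular repeats. Classical cadherins of type I (E-, N-, P- and R-cadherin) and type II hold adherens junctions together through catenins that link them to actin, and cells that carry different sets of them tend to sort apart. Protocadherins mark cell identity with weaker adhesion, Fat and Dachsous proteins pair across cell borders to orient tissues, and Celsr proteins belong to the planar polarity pathway. The iris muscles are unusual because they arise from the neuroectodermal epithelium of the optic cup, whereas the stroma derives largely from the neural crest.

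The 8 libraries held 34357 nuclei, with 5189437 to 25136427 unique molecular identifiers (UMIs) each and a median of 2775 to 4697.5 UMIs per nucleus. A barcode of another library occurred in 400 nuclei, with 63 barcodes shared by untreated replicate 1 and dilated replicate 1. Scrublet called 359 nuclei (1.04%) doublets, and the share was highest in sphincter 1 (7.52%), leukocytes (7.49%) and endothelial cells (7.33%). Levels are UMIs summed over the nuclei of a cell type in a library, divided by all UMIs of that cell type and library and scaled to counts per 1000000 (CPM), as mean ± SD over libraries. Several assigned types carried their markers. Ttn (titin) reached 1683 CPM in sphincter 1 and at most 28.6 CPM elsewhere. Adra1a (alpha-1A receptor) reached 479 CPM in dilator muscle, Sox10 963 CPM in stroma 1 and Tfap2b 2697 CPM in stroma 2. Flt1 reached 4679 CPM in endothelial cells and Mrc1 2543 CPM in leukocytes. The sphincter 2 markers (Chrm3, Adra1a, Syt1 and Myh11) did not single out their type. Their sum was 11417 CPM in sphincter 1 and 5804 CPM in sphincter 2. Myh11, also listed for dilator muscle (1931 CPM), was higher in sphincter 1 (2940 CPM) and sphincter 2 (2801 CPM). No marker was listed for CB. The labels of iris PE and CBE were not separated by the listed markers, since Zic1 was at 764 and 705 CPM and Pax6 at 1691 and 1214 CPM. Pax6 was also high in the muscle types and highest in CB (1998 CPM), where Zic1 was at 14.6 CPM. Krt12, a corneal epithelial keratin, was at 0 to 0.3 CPM.

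Cadherin genes took 492196 UMIs, 0.449% of all, and Pcdh7 and Pcdh9 alone took 44.5% of these. In untreated irises the summed level was highest in sphincter 1 (8593 ± 757 CPM, n = 3) and lowest in leukocytes (1617 ± 675 CPM). Dilator muscle, the other iris muscle, was at 2691 ± 384 CPM. A mean of at least 100 CPM in some cell type was reached by 19 genes, whereas 12 genes stayed under 10 CPM in every type. Cell types are compared by their spread over libraries without a test, since the authors' clusters rest on these very counts. Levels of different genes are compared only per kb of gene length, because nuclear counts include introns and long genes collect more UMIs. On that scale the leading gene was Cdh11 in stroma 2 (15.1 CPM per kb), Pcdh7 in sphincter 1 (10.4), sphincter 2 (10.1) and CBE (3.45), Cdh19 in stroma 1 (7.67), Fat1 in dilator muscle (6.52), Cdh5 in endothelial cells (6.33), Cdh3 in CB (5.76) and Cdh6 in iris PE (3.31) and leukocytes (1.15).

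**Figure D1:**
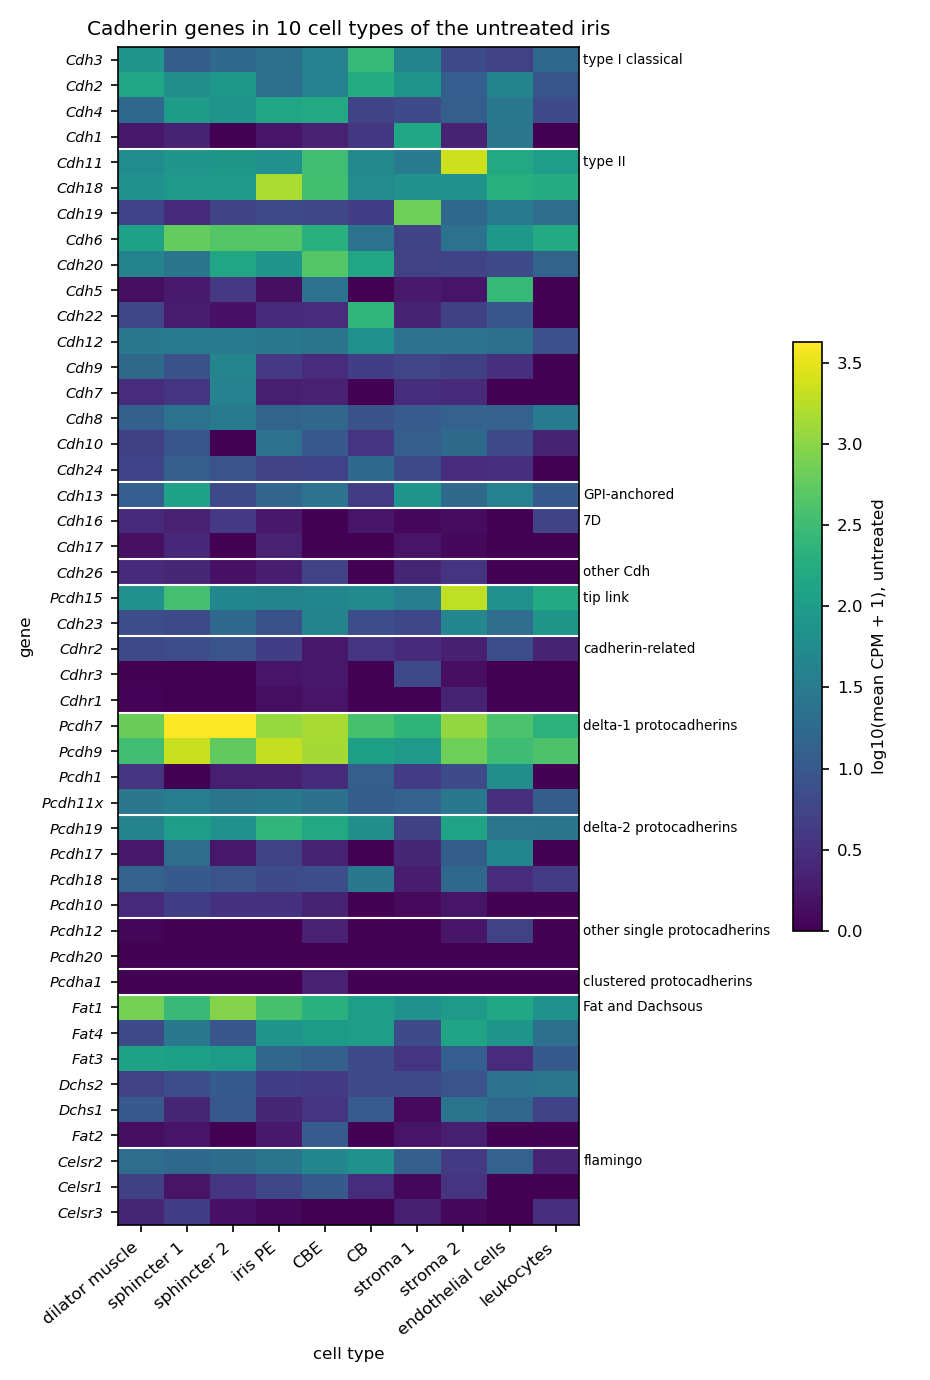
Mean level over the 3 untreated libraries of each of the 46 cadherin genes (rows) in the 10 cell types (columns), as log10(CPM + 1). Pcdh7 and Pcdh9 were counted in every column, at 214 and 91.9 CPM in their lowest types. Cdh19 (684 CPM in stroma 1), Cdh5 (271 CPM in endothelial cells) and Cdh22 (242 CPM in CB) each stood out in a single column.

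Of the 4 type I cadherins, Cdh1 was highest in stroma 1, Cdh2 and Cdh3 in CB and Cdh4 in CBE. Cdh1 (E-cadherin, chr8:106603351-106670246, plus strand, mm10) is the adhesion molecule of epithelia, and its highest level was in stroma 1, at 151, 143 and 163 CPM in the 3 untreated libraries. Endothelial cells came next at 26.3 ± 22.8 CPM (9 UMIs), and iris PE and CBE, the epithelia of this tissue, were lower still. The stroma 1 markers Sox10, Tbx1, Pax3, Tfap2a and Ednrb were at 27.7 to 211 CPM in endothelial cells, and Mitf at 412 CPM. The part of stroma 1 RNA in the endothelial levels of Cdh1 and Cdh19 was not tested. Sphincter 2 had 0 Cdh1 UMIs of 1264217, which allows up to 2.37 CPM, and leukocytes 0 of 455705, which allows up to 6.58 CPM. Cdh3 (P-cadherin) ends 46.1 kb upstream of Cdh1 on the same strand, and its highest level was in CB, at 456, 152 and 192 CPM. The spread there was wide (267 ± 165 CPM), yet each CB library lay above the highest dilator library (78.3 ± 23.1 CPM). Cdh2 (N-cadherin, typical of muscle and neural tissue) was at 170 ± 9.61 CPM in CB and 135 ± 14.3 CPM in dilator muscle, and the CB libraries lay above all dilator libraries. Cdh4 (R-cadherin, known from the developing retina) had 160 ± 20.8 CPM in CBE, and iris PE overlapped it with 142 ± 9.94 CPM.

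Several of the 13 type II cadherins were concentrated in a single cell type. Cdh11 (OB-cadherin, a cadherin of mesenchyme, chr8:102632095-102785642, minus strand) was at 2824, 1961 and 2151 CPM in untreated stroma 2, against 327 ± 99.1 CPM in CBE, the next type, 7.08-fold lower. Cdh19 (chr1:110888326-110977584, minus strand), known from neural crest derivatives and Schwann cell precursors, was at 648, 668 and 738 CPM in stroma 1 and at 29.7 ± 29.8 CPM in endothelial cells, the next type. Both genes therefore separated the stromal types in opposite directions, since Cdh11 was at 29.9 CPM in stroma 1 and Cdh19 at 15.9 ± 5.46 CPM in stroma 2. Cdh5 (VE-cadherin, the junctional cadherin of endothelium) was at 388, 259 and 167 CPM in endothelial cells and at 22.1 ± 9.97 CPM in CBE, the next type. In CBE, 26 of 373 untreated nuclei had a Cdh5 UMI while the summed endothelial markers were at 33.3 to 74.7 CPM, against 6976 to 7766 CPM in endothelial cells. CB had 0 Cdh5 UMIs of 1147669 in untreated libraries, which allows up to 2.61 CPM.

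Among the type II genes on chromosome 15, Cdh18 (chr15:22549022-23474418, plus strand), a cadherin of the nervous system, was highest in iris PE at 1469, 1528 and 1508 CPM, followed by CBE at 336 ± 30.8 CPM. Cdh6 (K-cadherin), also on chromosome 15, had its highest level in sphincter 1 (599 ± 30.2 CPM), where each library lay above those of iris PE (481 ± 21.8 CPM), and sphincter 2 followed with 464 ± 72.3 CPM. The others on this chromosome were low. Cdh10 was highest in iris PE (22.8 ± 0.945 CPM), Cdh9 in sphincter 2 (44.1 ± 33.5 CPM) and Cdh12 in CB (66.6 ± 52.4 CPM), the last 2 above the next type in only 2 of 3 libraries. Cdh20 on chromosome 1 was at 495, 488 and 418 CPM in CBE and at 140 ± 84.9 CPM in CB, and its untreated level in dilator muscle was 40.7 ± 7.93 CPM. Cdh22 was at 280.2, 277 and 169 CPM in CB, with 8.38 ± 9.96 CPM (2 UMIs) in endothelial cells as the next level. Its ratio between these types therefore rests on very few endothelial UMIs. Cdh13 (T-cadherin), which is anchored in the membrane by a lipid and has no cytoplasmic tail, had 121 ± 25.5 CPM in sphincter 1, above stroma 1 with 79.1 ± 11.7 CPM.

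The delta-1 protocadherins took the most UMIs of any subgroup (222134), a count that also reflects the length of their genes. Pcdh7 (chr5:57717967-58133230, plus strand) had 4941, 4146 and 3852 CPM in the untreated libraries of sphincter 1, and sphincter 2 had 4837, 3854 and 3887 CPM. The sphincter types overlapped, and both lay above CBE (1431 ± 111 CPM), iris PE (1183 ± 36.2 CPM) and stroma 2 (1124 ± 42.9 CPM). Pcdh9 (chr14:93013410-93890679, minus strand) had 2111 ± 365 CPM in sphincter 1, overlapping with iris PE (2030.3 ± 99.6 CPM), and CBE followed with 1405 ± 125 CPM. Sphincter 2 was at 552 ± 112 CPM, below every sphincter 1 library, whereas the sphincter types overlapped in Pcdh7. Pcdh19, a protocadherin on the X chromosome, had 244 ± 36.1 CPM in iris PE, above CBE with 162 ± 19.1 CPM. The clustered protocadherins were represented by Pcdha1 alone, with 6 UMIs in all. Genes of that cluster share their last exons, so this count is uncertain.

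Pcdh15 (chr10:73099342-74649737, plus strand) joins Cdh23 in the tip links of inner ear hair cells. It was at 2196, 1922 and 1660.0 CPM in untreated stroma 2 and at 301, 335 and 422 CPM in sphincter 1, with no overlap, and at 163 ± 117 CPM or less elsewhere. Cdh23, its partner, was at 46.7 ± 3.85 CPM in stroma 2 and 82.9 ± 51.6 CPM in leukocytes, and the 2 types overlapped. Within stroma 2, Pcdh15 was seen in part of the nuclei. Of untreated stroma 2 nuclei thinned at random to 1000 UMIs, 1223 had a Pcdh15 UMI and 1698 had none, at like median depths (2339 to 3000 and 2450 to 3035 UMIs before thinning). The share with a Cdh11 UMI was 79.6% ± 5.08 in the first and 82.9% ± 3.55 in the second. Pdgfra, a fibroblast receptor, was seen in 37.0% ± 5.23 of nuclei with Pcdh15 and 54.6% ± 11.6 of those without, and the ranges over libraries were 31.6% to 42.1% and 41.2% to 61.8%. Cdh23 was seen in 6.75% ± 1.26 against 2.69% ± 0.504, with no overlap between libraries. This was not particular to Cdh23. Pcdh7 (57.3% ± 2.26 against 46.9% ± 4.47), Fat1 and Pcdh18 were also higher with Pcdh15 and without overlap. So was Fat2 (0.405% ± 0.389 against 0.0400% ± 0.0693), but on very few nuclei. Cdh19 (0.767% ± 0.0765 against 2.20% ± 0.396), Cdh6 and Cdh2 were lower without overlap. These shares are descriptive, because the nuclei were split by a count from the same libraries. The share of all genes that separate in this way is not given, so the lists are no result about cadherins.

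Of the Fat genes, which encode very large cadherins, Fat1 (chr8:44935447-45052257, plus strand) had 1044, 828 and 841 CPM in the untreated libraries of sphincter 2. Dilator muscle was just below with 773, 748 and 763 CPM, without overlap, and sphincter 1 had 279.5 ± 11.6 CPM. Fat3 (chr9:15910189-16501285, minus strand), which is known to shape neuron form in the retina, was highest in the muscles: dilator muscle had 125 ± 20.0 CPM, sphincter 1 had 116 ± 15.5 CPM and sphincter 2 had 95.5 ± 13.6 CPM, followed by iris PE with 14.6 ± 1.28 CPM. The dilator and sphincter 1 values overlapped. Fat4, the receptor for Dachsous, was at 132 ± 6.43 CPM in stroma 2 and 110 ± 33.6 CPM in CB, which overlapped, and at 5.86 CPM in dilator muscle. Its ligand Dchs1 was at 23.7 ± 1.39 CPM in stroma 2. The flamingo gene Celsr2 reached 73.4 ± 13.7 CPM in CB, while Celsr1 and Celsr3 stayed under 10 CPM.

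How many nuclei carried a gene was compared at equal depth. After thinning each nucleus to 1000 UMIs, a Cdh19 UMI was found in 44.8% ± 2.80 of stroma 1 nuclei and in at most 1.63% ± 1.64 in any other type. Cdh11 was found in 81.5% ± 4.15 of stroma 2 nuclei, 27.1% ± 6.99 of CBE nuclei and 2.79% ± 1.07 to 6.78% ± 1.40 of the others. For Cdh18 the share was 66.2% ± 0.585 in iris PE, 19.3% ± 3.43 in CBE and between 4.46% and 12.2% in the other types. Pcdh7 was found in 96.2% ± 3.37 of sphincter 2, 95.1% ± 1.82 of sphincter 1 and 7.97% ± 3.33 of leukocyte nuclei. Free RNA can give UMIs to nuclei that do not transcribe a gene. It was not estimated here, so shares at the level of the lowest types are not taken to show transcription. Median depths were 1971.5 to 2054.5 UMIs per nucleus in leukocytes, 2624 to 3113 in stroma 1, 2381 to 2999 in stroma 2 and 3015 to 3581 in iris PE before thinning. Without thinning the shares were 77.0% for Cdh19 in stroma 1, 94.3% for Cdh11 in stroma 2, 87.2% for Cdh18 in iris PE and 98.9% for Pcdh7 in sphincter 1.

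**Figure D2:**
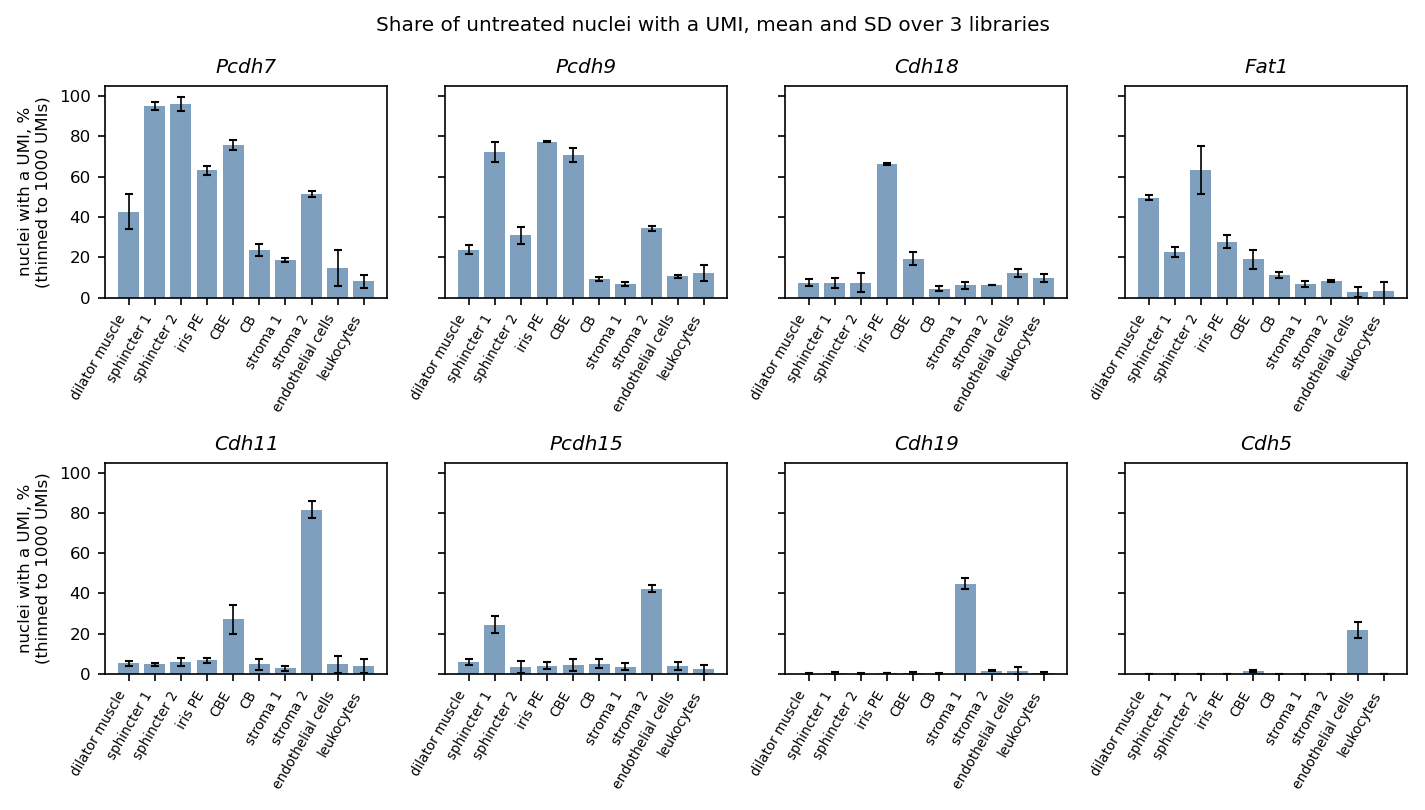
Share of untreated nuclei with a UMI of 8 cadherin genes after thinning each nucleus to 1000 UMIs (percent, bars are means and error bars SD over 3 libraries) in the 10 cell types. Cdh19 rose above 1.63% in stroma 1 alone (44.8%), whereas Pcdh7 was found in at least 7.97% of nuclei of every type.

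Conditions were compared in each cell type with edgeR on the summed counts, and a call means a log2 fold change beyond 0.6 in either direction and an adjusted p under 0.05 over all genes tested in that cell type. Of the 46 genes, 38 had enough UMIs to be tested in at least 1 cell type, which gave 183 tests of a gene in a cell type. The 8 genes tested nowhere were Cdh17, Cdhr1, Cdhr3, Celsr3, Fat2, Pcdh12, Pcdh20 and Pcdha1, each with 103 UMIs or fewer in all. The comparisons share libraries and are not independent of each other, and p-values measure the spread between these libraries. With dilation against untreated, 8 of the 183 tests were called lower and 1 higher, where 1.47% of all genes tested over the 10 types were called lower and 1.87% higher. The median log2 fold change was 0.02 over the 183 tests and 0.00 over all genes. The lower calls lay in the muscles: 4 of 35 genes tested in dilator muscle (6.14% of all genes tested there), 1 of 17 in sphincter 1 (1.32%) and 3 of 16 in sphincter 2 (1.4%). The share in dilator muscle is close to its background and is no result about cadherins. The higher call was 1 of 7 genes tested in leukocytes (0.76%). The median log2 fold change over the cadherin genes tested was 0.02 in dilator muscle, 0.19 in sphincter 1 and -0.16 in sphincter 2, against 0.02, 0.00 and 0.01 over all genes.

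Fat3 was called lower with dilation in all 3 muscle types. In dilator muscle it was at 148, 115 and 112 CPM in the untreated, 144, 70.0 and 44.3 CPM in the constricted and 54.1 and 36.9 CPM in the dilated libraries. The dilated libraries lay below the untreated ones, whereas constricted replicate 3 lay between the dilated libraries. The log2 fold change from untreated to dilated was -1.25 ± 0.35 (SE, adjusted p = 0.0317), and from constricted to dilated -0.75 (adjusted p = 0.20). The first call was lost without any 1 of the 3 untreated or 2 dilated libraries (adjusted p from 0.0613 to 0.180 without 1 of them, and from 0.000584 to 0.180 over all 17 alternatives). In sphincter 1, Fat3 was at 113, 102 and 133 CPM in untreated, 145, 115 and 119 CPM in constricted and 51.8 and 53.1 CPM in dilated libraries, so that the dilated libraries lay below all others. The log2 fold change was -1.13 ± 0.27 against untreated (adjusted p = 0.029) and -1.26 ± 0.29 against constricted (adjusted p = 0.0127). The call against untreated was lost without untreated replicate 2 (0.0662) or 3 (0.286) or dilated replicate 1 or 2 (0.228 each), without doublets (0.0736) and with DESeq2 (0.0943), and ranged from 0.00934 to 0.286. That against constricted was lost without constricted replicate 1 (0.0501) or dilated replicate 1 (0.122) or 2 (0.107), and ranged from 0.00699 to 0.122. In sphincter 2, Fat3 was at 109.9, 93.6 and 83.0 CPM in untreated, 123, 93.8 and 50.6 CPM in constricted and 37.0 and 13.6 CPM in dilated libraries, again with the dilated libraries lowest. Fitted changes were -1.78 ± 0.43 against untreated (adjusted p = 0.0156) and -1.80 ± 0.45 against constricted (adjusted p = 0.0195), on 190 UMIs in all 8 libraries. Without dilated replicate 2 these were -1.28 (adjusted p = 0.331) and -1.30 (0.381). Without untreated replicate 2 the first had an adjusted p of 0.0643 (range 0.000816 to 0.331), and without constricted replicate 1 the second had 0.202 and with only the 2 conditions fitted 0.0577 (range 0.00343 to 0.381).

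Outside the muscles Fat3 was low. It was at 15.9, 13.3 and 14.6 CPM in untreated and 15.6 and 9.25 CPM in dilated iris PE (log2 fold change -0.14 ± 0.41). In stroma 2 it was at 19.3, 8.44 and 6.23 CPM in untreated and 45.5 and 15.2 CPM in dilated libraries (1.76 ± 0.46, adjusted p = 0.0849), which overlapped. The dilation effect differed from that in dilator muscle by 1.09 ± 0.20 on the log2 scale in iris PE (adjusted p = 0.000597) and by 3.08 ± 0.36 in stroma 2 (adjusted p = 3.88e-05), in a joint fit of both types. The stroma 2 difference kept its call in all 11 alternatives (adjusted p from 3.69e-08 to 0.00681), whereas the iris PE difference was 0.89 without dilated replicate 1 (adjusted p = 0.103, range 0.000317 to 0.103). The summed endothelial markers in stroma 2 were at 203 to 303 CPM in untreated and 648 to 819 CPM in dilated libraries, and Fat3 was at 1.92 CPM in untreated endothelial cells. The mean percent of mitochondrial transcripts in stroma 2 was 0.0523 to 0.0672 in untreated, 0.0425 to 0.0868 in constricted and 0.101 and 0.0728 in dilated libraries. The part of these shifts in the Fat3 and Cdh2 values of stroma 2 was not tested. Between the muscles no difference of the effect passed the test: sphincter 1 minus dilator was 0.07 ± 0.31 (adjusted p = 0.946) and sphincter 2 minus dilator -0.57 ± 0.43 (adjusted p = 0.725), and these standard errors leave room for a difference of either sign.

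Cdh20 moved in opposite directions in the muscles. This type II cadherin (chr1:104768529-104995481, plus strand) was at 49.9, 35.7 and 36.5 CPM in untreated, 43.2, 72.7 and 36.2 CPM in constricted and 14.2 and 17.6 CPM in dilated dilator muscle. Both dilated libraries lay below all others, with log2 fold changes of -1.14 ± 0.28 against untreated (adjusted p = 0.018) and -1.48 ± 0.29 against constricted (adjusted p = 0.00499). Both calls were lost without dilated replicate 1, at -0.90 (adjusted p = 0.142, range 0.000782 to 0.142) and -1.24 (adjusted p = 0.0568, range 2.95e-05 to 0.0568). In sphincter 2 it was at 174, 99.9 and 138 CPM in untreated, 136, 43.3 and 118 CPM in constricted and 63.0 and 34.1 CPM in dilated libraries. The dilated libraries lay below the untreated ones but overlapped the constricted ones, and the log2 fold change against untreated was -1.34 ± 0.37 (adjusted p = 0.0412). That call was lost without any 1 of the untreated or dilated libraries (adjusted p from 0.0507 to 0.428) with DESeq2 (0.072) and with at least 10 UMIs in 2 libraries (0.054), and ranged from 0.00311 to 0.428. In sphincter 1 the values were lower and the order was turned: 10.8, 36.7 and 27.1 CPM in untreated, 19.7, 0 and 9.95 CPM in constricted and 51.8 and 62.3 CPM in dilated libraries, from 110 UMIs in all. The dilated libraries were the highest. The 0 in constricted replicate 2 stands for 0 of 165217 UMIs and allows up to 18.2 CPM. It changed by 2.30 ± 0.56 on the log2 scale against constricted (adjusted p = 0.0197) and 1.04 ± 0.40 against untreated (adjusted p = 0.285). The call was lost without constricted replicate 3 (0.0666) or dilated replicate 1 (0.0503) or 2 (0.178), and ranged from 0.00133 to 0.178. In sphincter 1, the sum of Pax6 and Zic1 was at 1129 to 1430 CPM in untreated and 944 to 1465 CPM in constricted libraries. It was at 2121 to 2195 CPM in the dilated ones. In untreated sphincter 1 this sum was mostly Pax6 (1258 CPM). Zic1 was at 62.9 CPM there, against 764 CPM in untreated iris PE. The part of Pax6 and Zic1 in the Cdh20 values was not tested.

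The dilation effect on Cdh20 in sphincter 1 differed from that in dilator muscle by 2.08 ± 0.38 on the log2 scale (adjusted p = 2.14e-05) and kept this call in all 11 alternatives (adjusted p from 2.94e-08 to 0.00143). In sphincter 2 the difference was -0.22 ± 0.36 (adjusted p = 0.912). In iris PE, where Cdh20 was at 76.1, 92.1 and 74.1 CPM untreated and 62.4 and 49.7 CPM dilated, the difference was 0.68 ± 0.21 (adjusted p = 0.0371). It was lost without untreated replicate 1 (0.59, adjusted p = 0.0714) or 3 (0.65, 0.123) and without dilated replicate 1 (0.24, 0.691), and ranged from 0.00537 to 0.691. In CBE, where Cdh20 was highest, the untreated libraries were at 495, 488 and 418 CPM and the dilated ones at 491 and 414 CPM (log2 fold change 0.00 ± 0.25).

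Cdh9 and Cdh2 fell in dilator muscle as well, and Cdh7 was called there only against constricted libraries. Cdh9 (chr15:16728756-16857094, plus strand), a type II cadherin of neurons, was at 13.7, 15.9 and 21.7 CPM in untreated, 24.6, 43.9 and 33.9 CPM in constricted and 8.69 and 7.41 CPM in dilated dilator muscle, and the 3 conditions did not overlap. The log2 fold change from constricted to dilated was -1.89 ± 0.29 (adjusted p = 0.00133), a call kept in all 17 alternatives (adjusted p from 3.11e-07 to 0.0119). From untreated to dilated it was -0.95 ± 0.29 (adjusted p = 0.0468), lost without untreated replicate 2 or 3 or dilated replicate 1 or 2 (adjusted p from 0.0991 to 0.208, range 0.0218 to 0.208). From untreated to constricted it was 0.94 ± 0.25 (unadjusted p = 0.00239, adjusted p = 0.911), which is not a call. Cdh2 was at 151, 123 and 132 CPM in untreated, 119, 159 and 125 CPM in constricted and 77.1 and 70.3 CPM in dilated dilator muscle. Dilated values were below all others, with log2 fold changes of -0.68 ± 0.16 (adjusted p = 0.0138) and -0.69 ± 0.16 (adjusted p = 0.0148). The first was lost without untreated replicate 3 (0.0534) or dilated replicate 1 (0.0774) or 2 (0.0762), and ranged from 0.00109 to 0.0774. The second was lost without dilated replicate 1 (0.0862) or 2 (0.0831), and without constricted replicate 2 its log2 fold change was -0.56 (adjusted p = 0.0303) and with the runs of library numbers as a block -0.55 (adjusted p = 0.00719), both short of 0.6 (range 0.00351 to 0.0862). Cdh7 was low throughout, at 2.49, 1.55 and 1.74 CPM in untreated, 3.48, 3.55 and 5.69 CPM in constricted and 0.79 and 1.00 CPM in dilated libraries (89 UMIs). The dilated libraries were lowest, at -2.11 ± 0.50 against constricted (adjusted p = 0.0163), lost without dilated replicate 1 (0.162) or 2 (0.071) and ranging from 0.00687 to 0.162. Against untreated it was at -0.86 ± 0.53 (adjusted p = 0.33), which is not a call. The other genes with the largest changes in dilator muscle were Cdh16 (kidney cadherin, -1.24 ± 0.63, adjusted p = 0.223) and Pcdh1 (0.95 ± 0.46, adjusted p = 0.204), both under 6 CPM in every library and not called.

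Against dilator muscle, the effect on Cdh2 differed by 1.04 ± 0.21 in stroma 1 (adjusted p = 0.000932) and by 1.98 ± 0.38 in stroma 2 (adjusted p = 0.00301), where dilated replicate 1 stood apart at 40.7 CPM beside 9.93 CPM in dilated replicate 2. Without that library the differences were 0.78 (adjusted p = 0.177, range from 0.000202) and 0.60 (adjusted p = 0.555, range from 2.39e-07). The effect on Cdh9 differed by 1.40 ± 0.38 in iris PE (adjusted p = 0.0145), lost without untreated replicate 3 (1.28, 0.0848) or dilated replicate 2 (1.21, 0.0949), with a range from 0.0117. Over all cadherin genes tested in both types of a pair, the effect differed at an adjusted p under 0.05 for 9 of 36 in iris PE (12.2% of all genes), 3 of 29 in sphincter 1 (6.71%), 0 of 27 in sphincter 2 (2.1%), 4 of 30 in stroma 1 (5.73%) and 7 of 35 in stroma 2 (8.13%). In dilator muscle the summed dilator markers were themselves at 3081 to 3467 CPM in untreated, 2979 to 3532 CPM in constricted and 1797 to 1916 CPM in dilated libraries. This sum does not single out dilator muscle. It was at 3059 to 3543 CPM in untreated sphincter 1 and 2987 to 3606 CPM in untreated sphincter 2. Myh11 was its largest part in untreated dilator muscle (1931 CPM). The mean percent of mitochondrial transcripts per dilator nucleus was 0.0351 to 0.0438 in untreated, 0.0308 to 0.0547 in constricted and 0.0885 and 0.0535 in dilated libraries, in the order of replicates. The part of either in the falls of cadherin genes in that type was not tested.

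In sphincter 2, Pcdh9 was at 623, 422 and 611 CPM in untreated, 759.6, 852 and 464 CPM in constricted and 348 and 201 CPM in dilated libraries. Again both dilated values were lowest. Dilation changed it by -0.92 ± 0.26 on the log2 scale against untreated (adjusted p = 0.0448) and -1.28 ± 0.26 against constricted (adjusted p = 0.00326). The call against untreated was lost without untreated replicate 1 (0.0984) or 3 (0.249), without dilated replicate 2 (-0.62, 0.496), with at least 10 UMIs in 2 libraries (0.0582) and without shared barcodes (0.0554), and ranged from 0.00121 to 0.496. That against constricted was lost without dilated replicate 2 (-0.99, 0.169) and ranged from 5.92e-05 to 0.169. The mean percent of mitochondrial transcripts in sphincter 2 was 0.0236 to 0.0474 in untreated, 0.0263 to 0.0506 in constricted and 0.0651 and 0.0607 in dilated libraries, and its part was not tested. The effect in sphincter 2 was not shown to differ from that in dilator muscle (-0.50 ± 0.19, adjusted p = 0.206).

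Promoter windows of 4 genes that fell in the muscles differed in base composition. The 250 bases before the RefSeq start are shown for 4 of the genes that fell with dilation, to set them beside each other, from GRCm38.p6 (the assembly that mm10 names), 5′ to 3′ on the strand of the gene, with CpG dinucleotides in capitals. Cdh20 covers chr1:104768270-104768519 (plus), Cdh9 chr15:16728665-16728914 (plus), Fat3 chr9:16502055-16502304 (minus) and Pcdh9 chr14:93890670-93890919 (minus). The RefSeq starts differ from those of the gene spans given above, so the windows do not sit alike. That of Cdh9 reaches into its span, which starts at 16728756. That of Fat3 lies wholly upstream of its span, which ends at 16501285. The part of these offsets in the base composition was not tested.
Cdh20: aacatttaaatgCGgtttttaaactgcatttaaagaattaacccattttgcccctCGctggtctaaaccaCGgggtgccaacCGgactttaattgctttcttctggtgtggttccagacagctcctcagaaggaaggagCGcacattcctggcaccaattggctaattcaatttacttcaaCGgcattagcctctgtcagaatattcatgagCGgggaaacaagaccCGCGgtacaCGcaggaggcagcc
Cdh9: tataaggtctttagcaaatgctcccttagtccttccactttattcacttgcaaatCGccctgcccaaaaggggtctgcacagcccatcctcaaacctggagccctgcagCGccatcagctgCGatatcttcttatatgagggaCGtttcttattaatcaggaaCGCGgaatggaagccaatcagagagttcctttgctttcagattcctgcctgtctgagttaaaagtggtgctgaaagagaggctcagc
Fat3: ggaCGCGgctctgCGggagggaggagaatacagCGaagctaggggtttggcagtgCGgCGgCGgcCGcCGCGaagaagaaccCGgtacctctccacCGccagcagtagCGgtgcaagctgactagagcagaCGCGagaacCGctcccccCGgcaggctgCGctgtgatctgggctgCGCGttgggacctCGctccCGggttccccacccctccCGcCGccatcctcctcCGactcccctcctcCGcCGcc
Pcdh9: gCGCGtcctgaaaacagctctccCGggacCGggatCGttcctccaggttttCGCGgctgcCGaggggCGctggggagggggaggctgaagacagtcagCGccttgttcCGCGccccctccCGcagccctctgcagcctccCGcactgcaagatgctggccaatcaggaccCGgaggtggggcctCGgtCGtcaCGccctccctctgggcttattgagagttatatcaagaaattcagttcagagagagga
The Fat3 window held 27 CpG and 70.4% G or C, that of Pcdh9 18 and 63.6%, that of Cdh20 10 and 47.6% and that of Cdh9 6 and 48%. Over the 32851 promoters counted the median was 6 CpG (quartiles 2 and 16). Over the 33 among them that belong to cadherin genes it was 10 (5 and 20). These 33 cover 30 of the 46 cadherin genes, and the others were left out of the CpG and motif counts. No window is shown for Cdh2, which also fell in dilator muscle. Searched on both strands, the cAMP response element TGACGTCA is in 1.55% of all promoters, the AP-1 site TGANTCA in 6.75%, the E-box CAGGTG in 17.2%, the EGR1 site GCGNGGGCG in 4.7% and the CArG box of serum response factor in 1.47%. Of the 33 cadherin promoters 6 hold the E-box, those of Cdh7 and Pcdh15 among them, and 3 the EGR1 site, that of Cdh7 among them, while the other 3 motifs were found in 0. None of these letters occurs in the 4 windows shown, and a match or its lack says nothing of the factors.

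**Figure D3:**
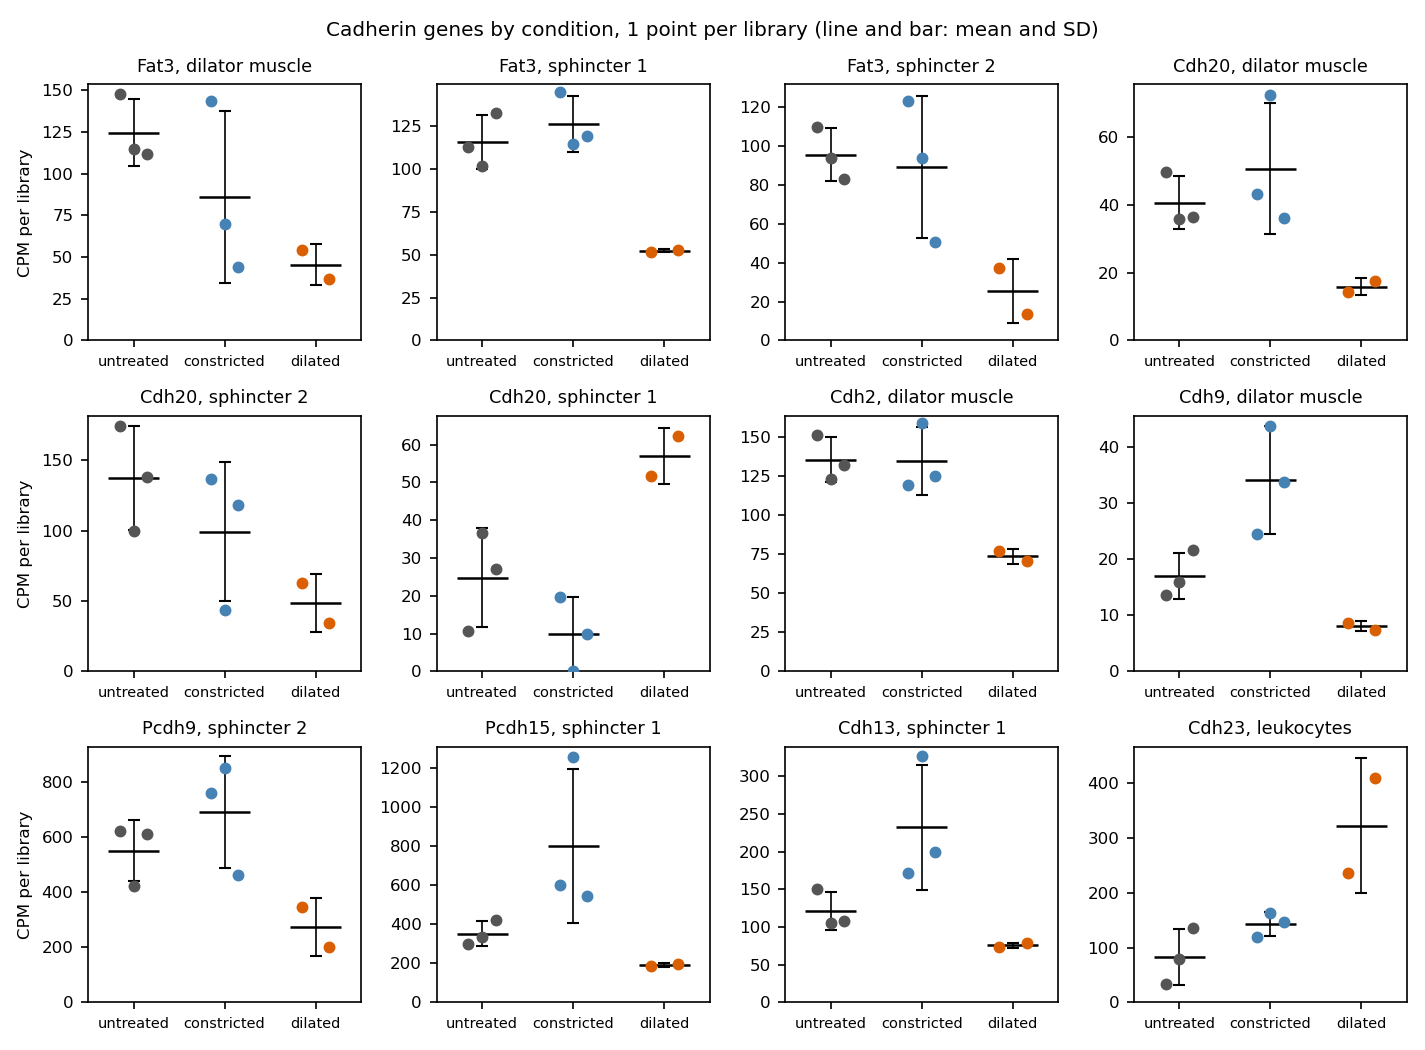
Level (CPM) per library in the untreated, constricted and dilated groups for 12 pairs of a cadherin gene and a cell type called in at least 1 comparison (points are libraries, lines means, error bars SD). In dilator muscle the 2 dilated libraries of Cdh20 (14.2 and 17.6 CPM) lay below the 6 others, and in sphincter 1 those of Cdh20 (51.8 and 62.3 CPM) lay above them.

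Pcdh15 and Cdh13 in sphincter 1 differed between dilation and constriction. Pcdh15 was at 301, 335 and 422 CPM in untreated, 602, 1259 and 547 CPM in constricted and 185 and 198 CPM in dilated libraries, and the 3 conditions did not overlap. The log2 fold change from constricted to dilated was -2.02 ± 0.31 (adjusted p = 0.000408) and kept its call in all 17 alternatives (adjusted p from 3.1e-12 to 0.00902). From untreated it was 1.16 ± 0.26 with constriction (adjusted p = 0.102) and -0.87 ± 0.31 with dilation (adjusted p = 0.22), neither a call. The summed stroma 2 markers were at 91.4 to 159 CPM in untreated, 90.8 to 171 CPM in constricted and 73.6 to 155 CPM in dilated sphincter 1, and at 90.8 CPM in constricted replicate 2, the library with the most Pcdh15. Cdh13 (chr8:118283733-119324921, plus strand) was at 151, 105 and 107 CPM in untreated, 171, 327 and 199 CPM in constricted and 73.6 and 78.5 CPM in dilated libraries, again with no overlap. Its log2 fold change from constricted to dilated was -1.54 ± 0.30 (adjusted p = 0.00353), lost without dilated replicate 1 (-1.44, adjusted p = 0.0504, range 4.96e-05 to 0.0504). From untreated it was 0.98 ± 0.25 with constriction (adjusted p = 0.177) and -0.56 ± 0.30 with dilation (adjusted p = 0.551). The summed sphincter 1 markers in this type were at 6707 to 7790 CPM in untreated, 6480 to 9448 CPM in constricted and 5294 to 6327 CPM in dilated libraries. Ctnna3, itself called lower with dilation in this type, is among these markers. The part of the summed markers in both results was not tested.

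Constriction against untreated gave 0 calls of 183 by edgeR, where 0.0118% of all genes tested were called in either direction. At an unadjusted p under 0.05 there were 21, and DESeq2 called 1. The share of all genes at that unadjusted cut is not given, so the 21 is no result about cadherins. Dilation against constriction gave 9 lower calls and 1 higher, where 1.31% of all genes tested were called lower and 1.35% higher. They were 4 of 35 in dilator muscle (4.87% of all genes tested there), 3 of 17 lower (2.66%) and 1 higher (1.04%) in sphincter 1 and 2 of 16 in sphincter 2 (1.48%).

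Outside the muscles a single call was made. Cdh23 in leukocytes was at 33.1, 79.6 and 136 CPM in untreated, 119, 163 and 146 CPM in constricted and 235 and 409 CPM in dilated libraries, from 147 UMIs. Untreated replicate 1 had 30205 UMIs in this type, where 3 counts would be 99.3 CPM, so its 33.1 CPM rests on fewer counts than that. Dilated leukocytes were above all others, at a log2 fold change of 1.71 ± 0.40 against untreated (adjusted p = 0.038). It was lost without untreated replicate 1 (0.0636), 2 (0.2) or 3 (0.0514), without dilated replicate 2 (1.29, adjusted p = 0.531) and with DESeq2 (0.143), and ranged from 0.0148 to 0.531. The summed leukocyte markers were at 4176 to 5359 CPM in untreated and 3104 to 3537 CPM in dilated leukocytes, and their part was not tested.

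The library numbers fall into runs (2 to 4, 13 alone, 15 to 18) that each hold few libraries. Values within a run are given here without a test, and the runs were fitted as a block as an alternative. For every called gene the compared groups did not overlap, so the direction within a run had to be that of the full comparison. Values within a run therefore add no support to the calls. Fat3 from untreated to dilated was at -1.45 and -1.62 in dilator muscle, -1.12 and -1.14 in sphincter 1 and -1.57 and -2.70 in sphincter 2 in the first and last run. Cdh20 was at -1.81 and -1.04 in dilator muscle, and Pcdh15 in sphincter 1 from constricted to dilated was at -1.70 and -1.46.

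**Figure D4:**
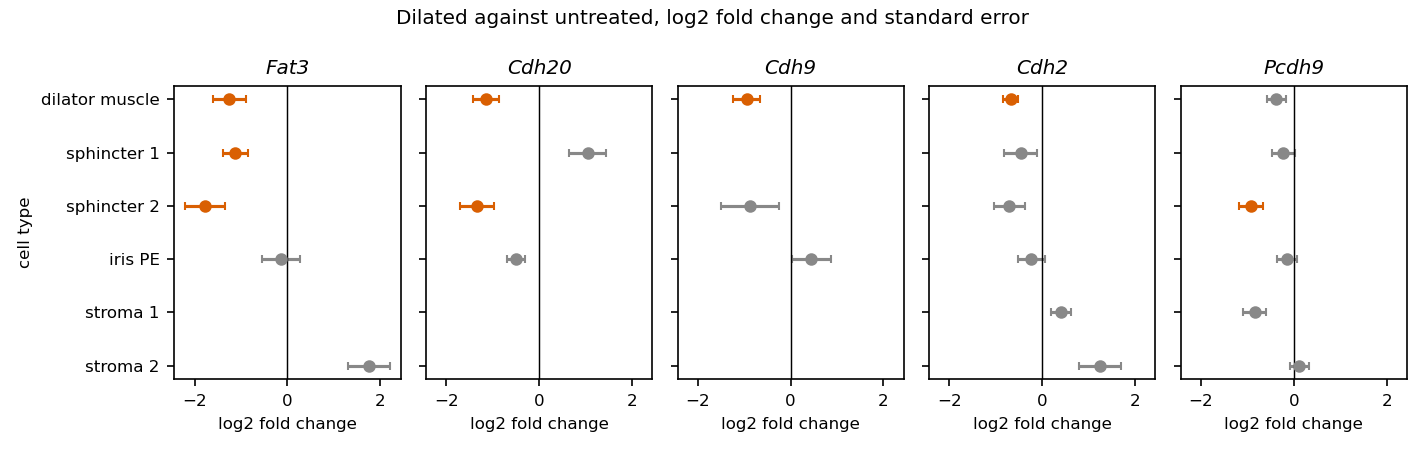
Log2 fold change from untreated to dilated (points, with standard error bars) of 5 cadherin genes in 6 iris cell types, with called values in orange and the others in grey. Fat3 lay at -1.25, -1.13 and -1.78 in dilator muscle, sphincter 1 and sphincter 2 and at 1.76 in stroma 2, where it was not called.

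Of the proteins that cadherins bind, the adherens junction list (catenins, vinculin and others, 12 genes, 90 tests) had 1 call higher and 3 lower with dilation against untreated, beside 1.87% higher and 1.47% lower of all genes tested over the 10 types. The median log2 fold change over the list was -0.02. In dilator muscle, where many partner calls lie, 7.2% of all genes were called higher and 6.14% lower. Vcl (vinculin, which ties alpha-catenin to actin under load) rose in dilator muscle, from 232, 197 and 207 CPM to 459 and 545 CPM (1.45 ± 0.17, adjusted p = 0.000195), with 266, 367 and 309 CPM in constricted libraries. All dilated libraries lay above all others. Ctnna3 (alpha-T-catenin, known from heart muscle junctions) fell in sphincter 1, from 1505, 1394 and 1411 CPM to 545 and 586 CPM (-1.30 ± 0.25, adjusted p = 0.00541), and was at 1613, 2657 and 1400 CPM in constricted libraries. Dilated sphincter 1 lay below every other library. Ctnnd2 (delta-catenin) fell in sphincter 1 (-0.99 ± 0.24, adjusted p = 0.034) and Lmo7 in dilator muscle (-0.71 ± 0.22, adjusted p = 0.0459). Against constricted libraries the list had 2 calls higher and 3 lower, beside 1.35% and 1.31% of all genes. The higher ones were Vcl in dilator muscle (0.86 ± 0.17, adjusted p = 0.00651) and Ctnnd2 in sphincter 2 (0.89 ± 0.24, adjusted p = 0.0355). The lower ones were Arvcf in iris PE (-1.04 ± 0.17, adjusted p = 0.0176), Ctnna3 in sphincter 1 (-1.72 ± 0.25, adjusted p = 0.000226) and Ctnna2 (alpha-N-catenin) in sphincter 1. Ctnna2 was there at 10.8, 14.4 and 46.0 CPM in untreated, 56.0, 84.7 and 66.4 CPM in constricted and 13.6 and 11.5 CPM in dilated libraries (-2.38 ± 0.56, adjusted p = 0.0169), so that the constricted libraries were highest.

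The planar polarity and Fat partner list (10 genes, 68 tests) had 3 higher and 1 lower call with dilation against untreated, 3 of these 4 in dilator muscle, with a median of -0.04. Prickle2, a planar polarity protein, rose in stroma 1 from 278, 256 and 241 CPM to 582 and 530.2 CPM (1.13 ± 0.15, adjusted p = 0.000646). The dilated libraries lay above all constricted ones too, which were at 273, 238 and 210 CPM. In dilator muscle Dact1 (2.29 ± 0.35, adjusted p = 0.00101) and Fjx1 (2.41 ± 0.62, adjusted p = 0.0215, under 5 CPM in every library) rose and Lix1l fell (-0.73 ± 0.18, adjusted p = 0.0151). Vangl2, a core planar polarity protein, was called lower there only against constricted libraries (-0.71 ± 0.20, adjusted p = 0.0365). Of the tip-link partners (8 genes, 4 of them tested, 15 tests), Whrn (whirlin) rose in dilator muscle (1.39 ± 0.16, adjusted p = 0.000147) and Myo7a (myosin VIIa) fell (-0.68 ± 0.19, adjusted p = 0.0301). The protocadherin partners (9 genes, 69 tests) had 1 call, Cyfip2 of the WAVE complex in dilator muscle (0.72 ± 0.16, adjusted p = 0.0117). Constriction against untreated gave 0 calls in each of these lists by edgeR. The partner lists were not run under the alternatives.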

How the data were processed

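The authors aligned reads to exons and introns of mm10 with Cell Ranger 3.1.0, removed nuclei with more than 1% mitochondrial transcripts or outside their limits on transcripts, and clustered with Seurat. The deposited matrices hold raw UMI counts per gene and nucleus, beside the authors' percent of mitochondrial transcripts per nucleus, averaged here per cell type and library, and the cell type. Counts were summed here per library and cell type, with 5189437 to 25136427 UMIs per library. In the rarest types a low gene has a few UMIs, and limits given for 0 counts (3 counts) cover counting error only.

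Tests used edgeR 4.0.16 (R 4.3.3): TMM, filterByExpr, glmQLFit and glmQLFTest, two-sided, 1 fit per cell type over all 8 libraries, Benjamini-Hochberg over all genes tested in the type. Standard errors were derived from the fold change and its F value. Differences of effects came from joint fits of 2 types. Alternatives were DESeq2 1.42.0, its size factors, other filters, blocks, nuclei left out (doublets by Scrublet in scanpy 1.11.5, shared barcodes) and each library left out. Nuclei were thinned with numpy 2.4.6. The scripts were tested on simulated data. GENCODE vM21, with 22511 of the 22873 genes and all 46 members matched, gave gene positions and lengths, and RefSeq (GRCm38.p6) gave promoters.

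The members and lists were chosen with earlier results of these data known. Genes are named if they reached 100 CPM in an untreated cell type (and Cdh5), were called in any comparison, or were among the 5 largest changes in dilator muscle, as are called partners and further genes that show where a level is low. No replicate pairing is stated by the labels.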

Additional observations from a re-analysis of the deposited data

Results flagged for a closer look

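Among cadherin genes called with dilation in a muscle type, 7 pairs of a gene and a cell type were singled out, in which the change from untreated to dilated differed from that in dilator muscle by the test of the difference itself, a joint edgeR fit with a term for each library. The difference on the log2 scale was 1.04 for Cdh2 in stroma 1 and 1.98 for Cdh2 in stroma 2. It was 0.68 for Cdh20 in iris PE and 2.08 for Cdh20 in sphincter 1. It was 1.40 for Cdh9 in iris PE, 1.09 for Fat3 in iris PE and 3.08 for Fat3 in stroma 2. Those of Cdh20 in sphincter 1 and Fat3 in stroma 2 kept an adjusted p under 0.05 in all 11 alternatives, and the other 5 lost it without at least 1 library. Cdh2, Cdh9, Cdh20 and Fat3 were chosen for their fall in dilator muscle, and the same libraries enter this test, which favours positive differences. Genes not so chosen differed too by this test: Pcdh15 in sphincter 1 (-1.38, adjusted p = 2.34e-05), Pcdh7 in stroma 1 (-1.07, 0.000145) and Pcdh18 in stroma 2 (2.03, 0.00018), among others.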

How the results depend on the processing

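Comparisons rest on 2 or 3 libraries a condition, and leaving out a dilated library leaves 1, which is then assumed to vary like the others. The counts of calls were the least stable results. They cover cadherin genes only, and the share of all genes called is not given for the alternatives. With dilation against untreated, the 1 higher call became 4 with the runs of library numbers as a block, 0 with DESeq2, 6 without a filter on low counts, 2 with at least 10 UMIs in 2 libraries and 3 with only the 2 conditions fitted, and the 8 lower calls became 14 with the runs as a block and 5 with DESeq2. With constriction against untreated, the 0 higher calls became 1 with the runs as a block, 1 with DESeq2 and 3 without the filter, and the 0 lower calls became 2 without the filter. With dilation against constriction, the 1 higher call became 3 with the runs as a block and 4 without the filter. Leaving out 1 library gave 0 to 2 higher and 1 to 9 lower calls (dilated against untreated), 0 to 1 and 0 to 1 (constricted against untreated) and 0 to 2 and 4 to 10 (dilated against constricted).

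In dilator muscle, deviations from the group means correlated at -0.0331 to 0.4256 between libraries of the same number. They correlated at 0.1816 to 0.4256 within a run of library numbers and at -0.4256 to 0.0869 between runs. Those of the dilated libraries mirror each other by construction. Libraries of a run thus deviated alike, and the main fit has no term for the runs. With the replicate block, 10 lower calls and 1 higher were made with dilation against untreated and 12 and 1 with dilation against constriction; Cdh9 in dilator muscle was then at -0.73 (adjusted p = 0.0776) and Fat3 in sphincter 1 at -1.06 (0.0924).

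Orders between cell types turned only where they overlapped. On the log2 scale, Cdh4 in CBE against iris PE was at -0.062 over all 8 libraries, Pcdh7 in sphincter 1 against sphincter 2 at -0.0034 after thinning, Pcdh9 in sphincter 1 against iris PE at -0.18 over all 8 libraries and -0.045 to 0.19 with 1 library left out, and Fat3 in dilator against sphincter 1 at -0.047 with pooled UMIs, -0.20 over all 8 libraries and -0.053 to 0.29 with 1 library left out. The difference in the Fat3 dilation effect between sphincter 1 and dilator was -0.023 without shared barcodes (an alternative chosen after seeing the data) and -0.19 to 0.39 with 1 library left out, and that of Cdh20 between sphincter 2 and dilator -0.89 to 0.33. Of 321 alternatives for called changes, 263 kept direction and call, 58 lost the call and 0 turned. Cdh9 in dilator muscle and Pcdh15 in sphincter 1, both dilated against constricted, kept the call in all 17. Every other called change lost its call in at least 1 alternative, among them each call of dilated against untreated. The cause was not tested.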

Other observations

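The desmosomal cadherins, which join epithelial cells to keratin filaments, lie outside the symbols used above. Of 6 listed, 5 are in the count tables and 4 were tested, in 7 tests. With dilation against untreated 0 were called by edgeR. With dilation against constriction 3 were lower, all in iris PE, where 37 of all 14128 genes tested were lower. Dsg2 (desmoglein 2) was at 41.0, 69.8 and 69.1 CPM in untreated, 77.5, 99.2 and 74.4 CPM in constricted and 30.8 and 30.5 CPM in dilated iris PE, so that the dilated libraries lay below all others (log2 fold change from constricted -1.40 ± 0.24, adjusted p = 0.0188). Dsc2 (desmocollin 2) was at 27.6, 38.8 and 35.7 CPM in untreated, 37.5, 46.7 and 48.3 CPM in constricted and 17.2 ± 0.342 CPM in the dilated libraries (-1.32 ± 0.22, adjusted p = 0.0171). Dsg1a was lower in level, with 3.81 and 4.11 CPM in dilated libraries (-1.74 ± 0.36, adjusted p = 0.0475). No classical cadherin or protocadherin was called in iris PE in any comparison. Arvcf, a catenin that binds classical cadherins, fell there from between 95.4 and 125 CPM in constricted to 58.2 and 42.8 CPM in dilated libraries (-1.04 ± 0.17, adjusted p = 0.0176).

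Cdh13 in endothelial cells was uneven between libraries. It was at 38.8, 57.0 and 17.3 CPM in untreated, 618, 0 and 1302 CPM in constricted and 170.2 and 41.2 CPM in dilated libraries. The fitted log2 fold change with constriction was 3.96 ± 0.90 (adjusted p = 0.0917), which is not a call, and the 0 of constricted replicate 2 allows up to 80.2 CPM. Cdh13 was chosen here after its values were seen. Cdh23, also chosen after its values were seen, was at 0, 9.57 and 7.22 CPM in untreated and 40.9 and 32.3 CPM in dilated sphincter 1 (2.33 ± 0.69, adjusted p = 0.101), where the 0 allows up to 16.1 CPM. It was not called there.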
